A study of Mus musculus with 12 samples.

Results

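The genes described here are the mouse Fc gamma receptors Fcgr1, Fcgr2b, Fcgr3 and Fcgr4, the adaptor chains Fcer1g and Tyrobp, and the kinase Syk. They were chosen by name, and all 7 were found among the 21965 genes of a count table from gingival tissue. RNA was sequenced from 12 libraries in 4 groups of 3, made from age- and sex-matched mice under 12 weeks old. WT naive mice were unligated C57BL/6 wildtype animals, WT ligated mice were the same strain 8 days after a silk ligature was tied around a maxillary molar, and CybbKO naive and CybbKO ligated mice were Cybb-/- animals without and with the same ligature. The mutation is not limited to a cell type. Cybb encodes the catalytic subunit of the phagocyte NADPH oxidase Nox2, and the ligature is a model of periodontitis.

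Fc gamma receptors bind the constant part of IgG on immune complexes and on antibody-coated microbes, and are found mainly on myeloid cells. Fcgr1, Fcgr3 and Fcgr4 are activating receptors that signal through the common gamma chain encoded by Fcer1g. This chain carries an ITAM, a short motif whose tyrosines are phosphorylated by Src family kinases and then hold Syk. Fcgr2b is the inhibitory receptor of the family and carries the opposing motif, an ITIM, which recruits the lipid phosphatase SHIP1. Tyrobp, also called DAP12, is a separate ITAM adaptor, used by receptors such as those of the TREM family.

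Library totals ran from 27958819 to 42613423 counted reads, and a member had at least 15 counts in every library, so that all 7 passed the filter on low counts. Levels are given as CPM, the counts of a gene relative to the counts of its library after TMM scaling between libraries, and n counts libraries. Oral epithelium markers summed to between 70630 and 129800 CPM over all libraries, and none of them was at 0 in every library. Salivary gland markers summed to between 64.3 CPM in WT naive replicate 1 and 33260 CPM in WT naive replicate 3. The targeted gene Cybb did not fall in the mutant. It ran from 41.6 to 56.3 CPM in CybbKO naive and from 4.19 to 5.60 CPM in WT naive libraries, and from 51.1 to 63.7 CPM in CybbKO ligated and from 8.41 to 15.2 CPM in WT ligated libraries. The counts are not split by exon and cannot tell an intact from a disrupted transcript, so that every difference from WT below is one of the libraries labelled CybbKO.

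The 4 receptor genes and Fcer1g lie on 2 chromosomes. On GRCm38, Fcgr2b (ENSMUSG00000026656, chr1:170958617-170976547, minus strand), Fcgr4 (ENSMUSG00000059089, chr1:171018920-171029761, plus strand), Fcgr3 (ENSMUSG00000059498, chr1:171051174-171064935, minus strand) and Fcer1g (ENSMUSG00000058715, chr1:171229572-171234365, minus strand) are neighbours on chromosome 1. Fcgr1 (ENSMUSG00000015947, chr3:96282909-96293969, minus strand) lies apart from them on chromosome 3. Tyrobp (ENSMUSG00000030579, chr7:30413760-30417585, plus strand) and Syk (ENSMUSG00000021457, chr13:52583173-52648792, plus strand) lie on chromosomes 7 and 13.

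Upstream stretches are shown for the activating receptors and their shared chain, 4 of the 6 members called higher with the ligature in CybbKO mice. Fcgr2b and Tyrobp were also called and are not shown. The promoter entry of Fcgr2b held neither of the motifs marked below, and Tyrobp had no entry. The stretches are RefSeq promoter sequences of GRCm38.p6, read 5′ to 3′ on the gene's strand up to the start site or to the first annotated exon base. Capitals mark the letters TTCCTC, which are GAGGAA on the opposite strand, the core bound by the myeloid factor PU.1, and in Fcgr1 also TTCCCAGAA, which has the form TTCNNNGAA bound by STAT factors. The motifs do not overlap. The RefSeq start of Fcgr3 lies inside the gene as GENCODE draws it, so that its stretch precedes an internal start and not the outermost one.
Fcgr1 (chr3:96293970-96294089, minus strand): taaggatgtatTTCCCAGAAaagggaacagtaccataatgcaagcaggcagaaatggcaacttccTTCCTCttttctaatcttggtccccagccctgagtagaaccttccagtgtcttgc
Fcgr3 (chr1:171059404-171059523, minus strand): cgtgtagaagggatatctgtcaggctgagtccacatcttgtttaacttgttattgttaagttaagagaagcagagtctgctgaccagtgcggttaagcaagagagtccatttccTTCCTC
Fcgr4 (chr1:171018806-171018919, plus strand): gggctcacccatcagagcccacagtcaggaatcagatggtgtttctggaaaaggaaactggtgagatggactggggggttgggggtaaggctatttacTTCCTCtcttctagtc
Fcer1g (chr1:171234366-171234469, minus strand): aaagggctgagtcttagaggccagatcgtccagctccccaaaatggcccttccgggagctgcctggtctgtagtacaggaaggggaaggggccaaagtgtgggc

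Both strands were searched from 250 bases before to 50 bases after the start site. GAGGAA was present for 4 of the 6 members with a promoter entry, namely Fcgr1, Fcgr3, Fcgr4 and Syk, where the Fcgr3 and Syk matches are at starts internal to the annotated gene, and for 31.3% of the 27025 genes in the promoter table. TTCNNNGAA was present for 1 of 6, Fcgr1, and for 9.55% of those genes. These are matches of letters and do not show that a factor was bound.

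In the libraries labelled CybbKO, the 4 receptors and both adaptors rose with the ligature while Syk did not. The test called 6 of the 7 members higher, against 9.95% of the 15046 genes tested. The median member was 1.81 higher on the log2 scale, against -0.03 for all tested genes. Called here means an adjusted p under 0.05 in edgeR's quasi-likelihood test, adjusted over all tested genes. In WT mice the same comparison called 0 of 7 members, against 2.31% of all tested genes called higher, although 5 had an unadjusted p under 0.05, against 11.3% of all tested genes higher at that level. The median member was 0.75 higher in WT. DESeq2, run as an alternative, called 4 members higher in WT, namely Fcgr1, Fcgr2b, Fcer1g and Tyrobp, against 5.66% of genes. For 3 members, Fcgr1, Fcgr2b and Tyrobp, every WT ligated library lay above every WT naive library, as for 13.3% of all tested genes. In CybbKO this was so for all 7 members, against 18.5% of genes. In CybbKO DESeq2 called the same number of members as edgeR, 6, against 12.3% of genes.

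Between the genotypes in ligated tissue, all 7 members had a higher mean in the libraries labelled CybbKO, with a median log2 difference of 0.84 against 0.01 for all tested genes. None passed the adjusted threshold with edgeR or DESeq2, and these tools called 0.00665% and 0.093% of all tested genes. At an unadjusted p under 0.05 there were 6 members, all but Syk, against 2.87% of genes higher at that level. For 6 members, all but Fcgr2b, every CybbKO ligated library lay above every WT ligated library, as was so for 5.0% of all tested genes. In naive tissue 0 of 7 members were called by either tool, 0 had an unadjusted p under 0.05 against 2.03% of all tested genes, and the groups overlapped for each of them, whereas 2.08% of genes had all CybbKO naive libraries higher and 3.03% had all of them lower. In this naive comparison edgeR called 0.00665% of all tested genes and DESeq2 0.0133%.

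**Figure D1:**
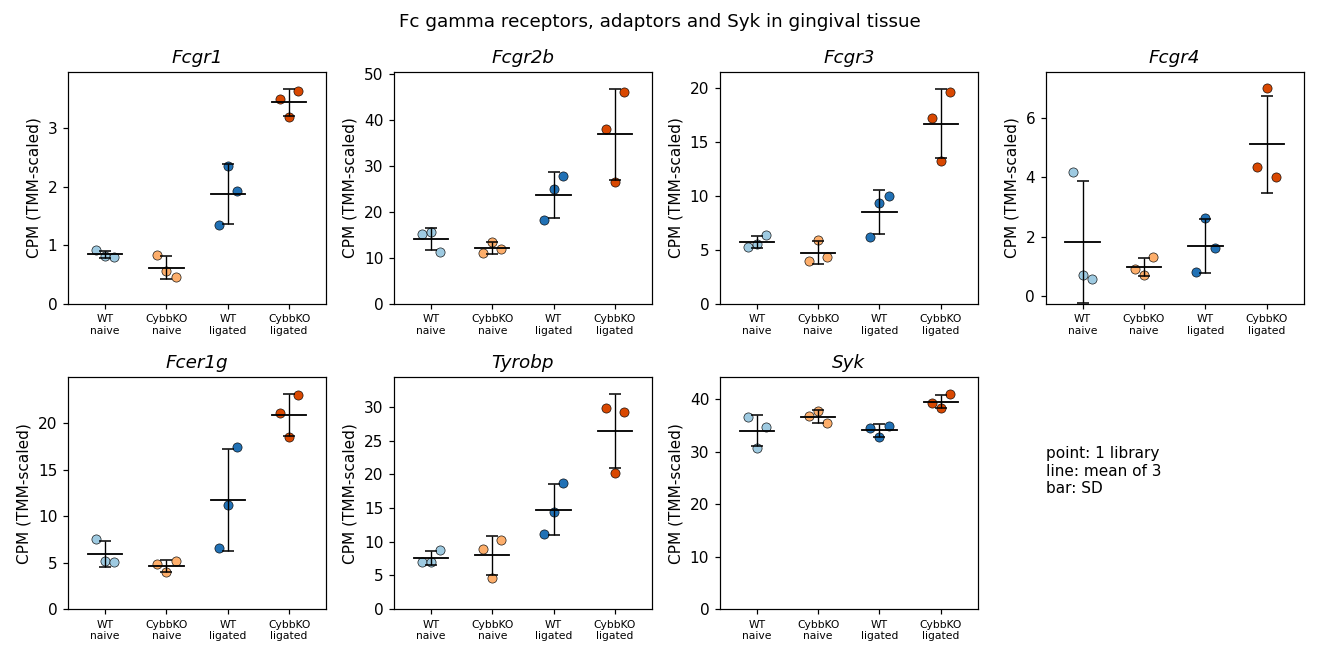
Level of each gene in CPM after TMM scaling (y axis, linear) in each of the 12 libraries by group (x axis), with the mean and SD of 3 libraries. Each member has its highest group mean in CybbKO ligated tissue, Syk stays between 30.7 and 40.9 CPM, and Fcgr4 has a single WT naive library at 4.20 CPM.

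Fcgr1, the high-affinity IgG receptor of monocytes and macrophages, was at most 3.63 CPM in any library. It had 0.91, 0.82 and 0.80 CPM in WT naive and 0.84, 0.55 and 0.46 CPM in CybbKO naive libraries. After the ligature it had 1.34, 2.35 and 1.92 CPM in WT and 3.50, 3.18 and 3.63 CPM in the libraries labelled CybbKO. Every ligated library was thus above every naive library, and every CybbKO ligated library was above every WT ligated one. The ligature change on the log2 scale was 2.47 (SE 0.30, adjusted p = 0.00185) in CybbKO, which is 5.54-fold, and 1.14 (SE 0.29, adjusted p = 0.0574) in WT. With DESeq2 the adjusted p in WT was 0.0127. Fcgr1 differed between the ligated groups by 0.88 (SE 0.28, unadjusted p = 0.00831, adjusted p = 1.00).

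Fcgr3, the activating low-affinity receptor for immune complexes, had 5.30, 5.50 and 6.34 CPM in WT naive and 3.95, 5.94 and 4.33 CPM in CybbKO naive libraries. It had 6.17, 9.37 and 10.01 CPM in WT ligated and 17.2, 13.2 and 19.6 CPM in CybbKO ligated libraries. WT ligated replicate 1 lay within the naive range, and the CybbKO ligated libraries lay above all others. The ligature change was 1.81 (SE 0.24, adjusted p = 0.00207) in CybbKO and 0.58 (SE 0.23, adjusted p = 0.195) in WT. Of the 7 members, Fcgr3 had the lowest unadjusted p between the ligated groups, with a log2 difference of 0.97 (SE 0.23, unadjusted p = 0.00131, adjusted p = 0.996). DESeq2 gave this difference an adjusted p of 0.0615.

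Fcgr4, an activating receptor of monocytes and neutrophils for IgG2 subclasses, was low in naive tissue apart from 1 library. It had 4.20, 0.70 and 0.58 CPM in WT naive libraries, from 138, 22 and 16 counts. It had 0.89, 0.72 and 1.31 CPM in CybbKO naive, 0.80, 2.62 and 1.63 CPM in WT ligated and 4.36, 7.01 and 4.02 CPM in CybbKO ligated libraries. WT naive replicate 1 was as high as the lower CybbKO ligated libraries. Neutrophil markers in that library summed to 932 CPM, against 475 and 530 CPM in the other WT naive libraries and between 907 and 1030 CPM in CybbKO naive libraries, and their part in the result was not tested. The ligature change was 2.39 (SE 0.69, adjusted p = 0.0414) in CybbKO. This call was lost when WT ligated replicate 3, or any 1 of the 6 libraries labelled CybbKO, was left out, with log2 changes from 2.10 to 2.66 and adjusted p-values from 0.0558 to 0.126. In WT the change was -0.13 (SE 0.67, adjusted p = 0.941), and 1.39 (adjusted p = 0.176) without WT naive replicate 1. CybbKO ligated differed from WT ligated tissue in Fcgr4 by 1.61 (SE 0.66, unadjusted p = 0.0324, adjusted p = 1.00). The naive libraries enter this SE and p through the shared estimate of the spread, though not the difference of the means.

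Fcgr2b, the inhibitory receptor, had the most counts of the receptor genes. It had 15.2, 15.7 and 11.3 CPM in WT naive and 10.97, 13.4 and 11.96 CPM in CybbKO naive libraries. It had 18.2, 24.99 and 27.8 CPM in WT ligated and 38.0, 26.4 and 46.0 CPM in CybbKO ligated libraries. The ligated groups overlapped, since CybbKO ligated replicate 2 lay below WT ligated replicate 3, while each ligated group lay above both naive groups. The ligature change was 1.60 (SE 0.23, adjusted p = 0.00225) in CybbKO and 0.75 (SE 0.22, adjusted p = 0.0882) in WT, where DESeq2 gave an adjusted p of 0.0269. Between the ligated groups it differed by 0.64 (SE 0.22, unadjusted p = 0.0136, adjusted p = 1.00). Fcgr2b and Fcgr3 share sequence. Of the stretches of 75 bases in their exons, 2.70% of those of Fcgr2b were also found in another gene, Fcgr3 among them, and 5.42% of those of Fcgr3 were found in Fcgr2b. How the counting treated reads from such stretches is not given in the sources used here.

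Fcer1g, the gamma chain that the activating receptors need at the cell surface, had 7.49, 5.12 and 5.10 CPM in WT naive and 4.85, 3.97 and 5.12 CPM in CybbKO naive libraries. It had 6.60, 11.2 and 17.5 CPM in WT ligated and 21.1, 18.5 and 23 CPM in CybbKO ligated libraries. The CybbKO ligated libraries were close together and above all others, while the WT ligated libraries were widely spread and the lowest of them lay below WT naive replicate 1. The ligature change was 2.17 (SE 0.31, adjusted p = 0.00234) in CybbKO and 0.99 (SE 0.30, adjusted p = 0.0920) in WT, where DESeq2 gave 0.0238. Its difference between the ligated groups was 0.83 (SE 0.29, unadjusted p = 0.0160, adjusted p = 1.00).

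Tyrobp, the other ITAM adaptor, had 6.94, 6.96 and 8.71 CPM in WT naive and 8.92, 4.63 and 10.3 CPM in CybbKO naive libraries. It had 11.2, 14.4 and 18.7 CPM in WT ligated and 29.8, 20.1 and 29.3 CPM in CybbKO ligated libraries. The ligated groups did not overlap with each other or with the naive groups. The ligature change was 1.73 (SE 0.29, adjusted p = 0.00402) in CybbKO and 0.97 (SE 0.29, adjusted p = 0.0898) in WT, where DESeq2 gave 0.0232. Tyrobp differed between the ligated groups by 0.84 (SE 0.28, unadjusted p = 0.0121, adjusted p = 1.00).

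Syk, the kinase that docks on phosphorylated ITAMs and is also made outside the myeloid lineage, moved least. It had 36.6, 30.7 and 34.7 CPM in WT naive, 36.8, 37.8 and 35.4 CPM in CybbKO naive, 34.6, 32.7 and 34.9 CPM in WT ligated and 39.3, 38.3 and 40.9 CPM in CybbKO ligated libraries. The CybbKO ligated libraries were above all other libraries, by a small margin. The ligature change was 0.11 (SE 0.10, adjusted p = 0.535) in CybbKO and 0.00 (SE 0.10, adjusted p = 0.997) in WT. The ligated groups differed by 0.22 (SE 0.10, unadjusted p = 0.0595, adjusted p = 1.00). The mean absolute deviation of Syk from its own mean over the 12 libraries was 0.09 on the log2 scale, and for the other members it ran from 0.59 (Fcgr2b) to 1.06 (Fcgr4).

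**Figure D2:**
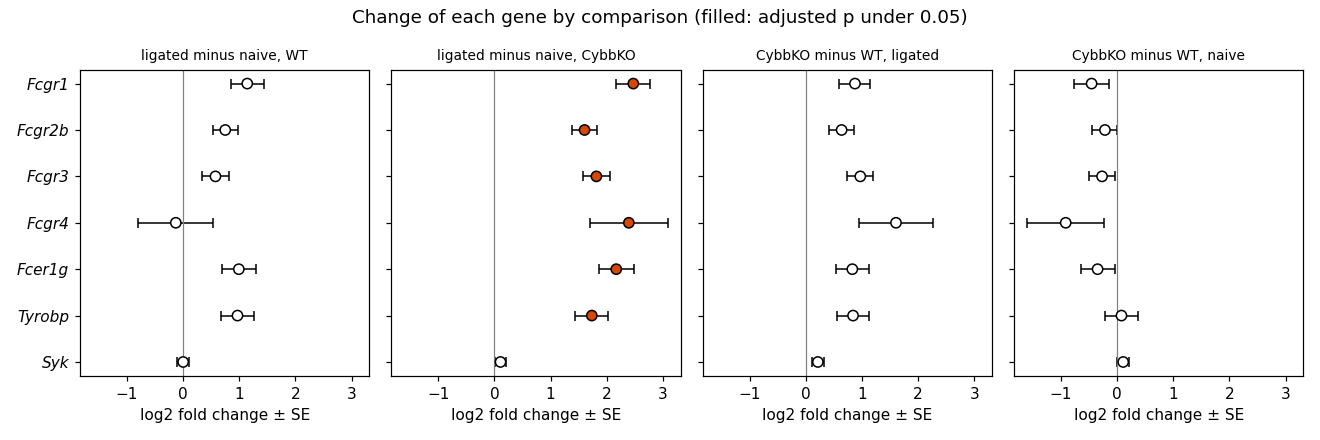
Log2 fold change with its standard error (x axis) of each gene (y axis) in the ligature comparison of each genotype and the genotype comparison of each condition. The changes called by edgeR are filled and are the 6 in the CybbKO ligature comparison, and Syk lies within 0.22 of 0 in each.

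The ligature change itself was set against genotype in an interaction, the change in CybbKO minus the change in WT. It was positive for all 7 members, with a median of 1.18 against 0.02 for all tested genes. None was called by edgeR or DESeq2, which called 0.0% of all tested genes, and 5 members had an unadjusted p under 0.05, against 1.79% of genes higher at that level. Fcgr3 had a difference of 1.24 (SE 0.33, unadjusted p = 0.00285, adjusted p = 1.00) and Tyrobp one of 0.76 (SE 0.40, unadjusted p = 0.0839). For Fcgr4 it was 2.52 (SE 0.95, unadjusted p = 0.0216), and 1.01 without WT naive replicate 1. The calls in CybbKO and their lack in WT are therefore not shown to be a difference between the genotypes. In naive tissue the log2 differences of CybbKO from WT ran from -0.91 (Fcgr4) to 0.11 (Syk), all with an adjusted p of 1.00. Without WT naive replicate 1 that of Fcgr4 was 0.60.

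Per kilobase of annotated exon, which allows genes to be compared, the adaptors were the most abundant members in each group. In WT naive tissue Tyrobp had 11.3 ± 1.52 CPM per kb (SD, n = 3) and Fcer1g 6.76 ± 1.57, followed by Syk with 3.63 ± 0.321, Fcgr3 with 3.29 ± 0.318, Fcgr2b with 2.43 ± 0.415, Fcgr4 with 1.46 ± 1.64 and Fcgr1 with 0.327 ± 0.0230. Syk and Fcgr3 overlapped within 1 SD, as did Fcgr4 with each of Fcgr3, Fcgr2b and Fcgr1. In CybbKO naive tissue the order was the same, and there Fcgr3, with 2.73 ± 0.607, and Fcgr2b, with 2.09 ± 0.211, overlapped. In CybbKO ligated tissue Tyrobp reached 39.6 ± 8.16 and Fcer1g 23.9 ± 2.57 CPM per kb, and Fcgr3 (9.61 ± 1.85) and Fcgr2b (6.36 ± 1.70) had means above Syk (4.22 ± 0.139), unlike in naive tissue, and Fcgr4 had 4.08 ± 1.30. Fcgr3 and Fcgr2b overlapped there, as did Fcgr4 with both Fcgr2b and Syk. Fcgr1 stayed the lowest with 1.33 ± 0.0885. In WT ligated tissue the order was that of CybbKO ligated tissue, but Tyrobp (22.1 ± 5.64) and Fcer1g (13.5 ± 6.26) overlapped, as did Fcgr3 (4.91 ± 1.19), Fcgr2b (4.09 ± 0.854) and Syk (3.64 ± 0.127), and Fcgr4 (1.34 ± 0.725) and Fcgr1 (0.723 ± 0.196).

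The balance of activating over inhibitory receptor was followed as a log2 ratio of counts within each library, which needs no scaling between libraries. Over the 16 comparisons made of 4 ratios no difference passed the threshold, and the lowest p that an exact two-sided permutation test allows at this group size is 0.1. The Fcgr1 to Fcgr2b ratio was -4.34 ± 0.545 (SD, n = 3) in CybbKO naive and -3.39 ± 0.309 in CybbKO ligated libraries. This difference of 0.95 had no overlap of libraries (exact permutation p = 0.1, adjusted p = 0.533). The Fcgr3 to Fcgr2b ratio was -1.48 ± 0.0724 in WT ligated and -1.12 ± 0.118 in CybbKO ligated libraries, also without overlap (difference 0.36, exact permutation p = 0.1, adjusted p = 0.533). In the other 14 comparisons the libraries overlapped. The Fcgr4 to Fcgr2b ratio was -1.85, -4.50 and -4.28 in the WT naive libraries, and over all libraries it was lowest in WT ligated replicate 1, with -4.51. The Fcer1g to Tyrobp ratio was -0.37 ± 0.445 in WT naive, -0.70 ± 0.421 in CybbKO naive, -0.41 ± 0.334 in WT ligated and -0.32 ± 0.191 in CybbKO ligated libraries.

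**Figure D3:**
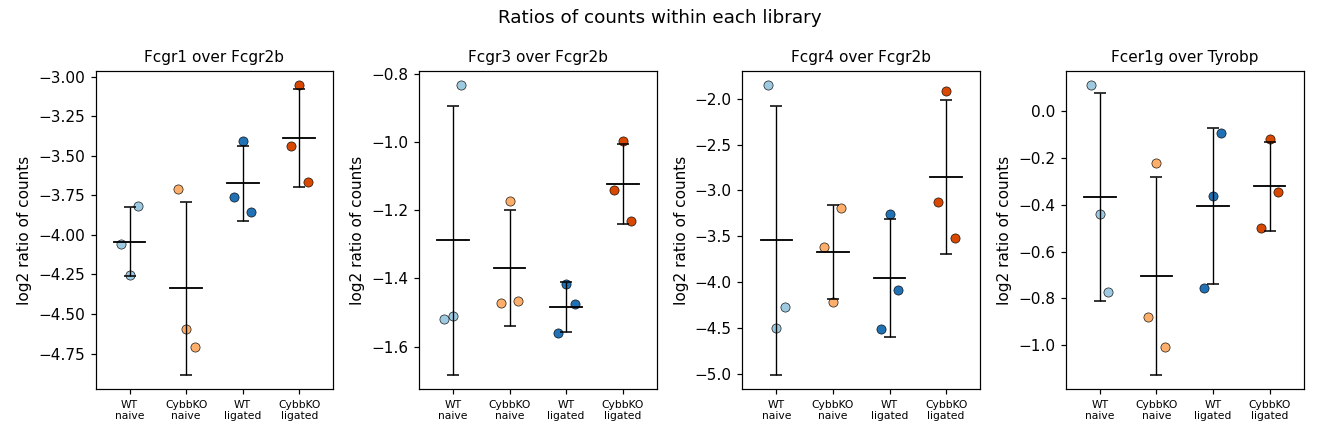
Log2 ratio of counts of 2 genes within a library (y axis) by group (x axis), with points for libraries, lines for the mean and bars for the SD of 3 libraries. The Fcgr1 to Fcgr2b ratio is higher in CybbKO ligated than in CybbKO naive libraries and the Fcgr3 to Fcgr2b ratio higher in CybbKO ligated than in WT ligated libraries, without overlap, and the libraries overlap in the other 14 comparisons made. No difference passed the threshold, and with 3 against 3 libraries the exact permutation test cannot give a p under 0.1.

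Markers of several cell types moved in the same comparisons. In bulk tissue a change in the number of cells of a type and a change in RNA per cell cannot be told apart. The 14 monocyte and macrophage markers summed to between 151 and 190.5 CPM in WT naive, 134 and 146 CPM in CybbKO naive, 219 and 365 CPM in WT ligated and 318 and 500 CPM in CybbKO ligated libraries. Of them 3 were called higher with the ligature in WT and 13 in CybbKO, with median log2 changes of 0.72 and 1.61. For this and the lists below, edgeR called 2.31% of all tested genes higher in WT and 9.95% in CybbKO. The 12 neutrophil markers summed to between 475 and 932, 907 and 1030, 1607 and 3957, and 2984 and 11750 CPM in the same order of groups, and 1 and 9 of the 11 tested were called higher. Between the ligated groups 0 markers of either list were called, and their median log2 differences were 0.54 for monocytes and macrophages and 1.29 for neutrophils. The 7 mast cell markers summed to between 35.2 and 46.7 CPM in CybbKO ligated libraries and to at most 31.1 CPM elsewhere. Of these 7, edgeR called 0 higher with the ligature in WT and 1 in CybbKO, and DESeq2 called 1 in each. Their median log2 changes were -0.44 in WT and 0.29 in CybbKO. The shift was not limited to leukocytes. Of 7 fibroblast markers, 3 were called higher with the ligature in WT and 6 in CybbKO, with median log2 changes of 1.47 and 2.43, and of 7 endothelium markers likewise 3 and 6, with medians of 0.93 and 1.02. The gap between the genotypes in these counts was smaller with DESeq2, which called 5 monocyte and macrophage, 6 neutrophil, 5 fibroblast and 6 endothelium markers higher in WT, and 13, 10, 6 and 6 in CybbKO. Of all tested genes DESeq2 called 5.66% higher in WT and 12.3% in CybbKO. No marker of these lists was at 0 in every library. Within CybbKO ligated tissue, replicate 2 had the lowest monocyte and macrophage sum and also the lowest Fcgr1, Fcgr2b, Fcgr3, Fcer1g, Tyrobp and Syk, but the highest Fcgr4. The same library had the lowest fibroblast sum, 4418 CPM against 11970 and 11050 CPM, the lowest osteoclast sum and the highest oral epithelium sum, 117500 CPM against 77000 and 70630 CPM. The part of these cells in the changes of the members was not tested.

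**Figure D4:**
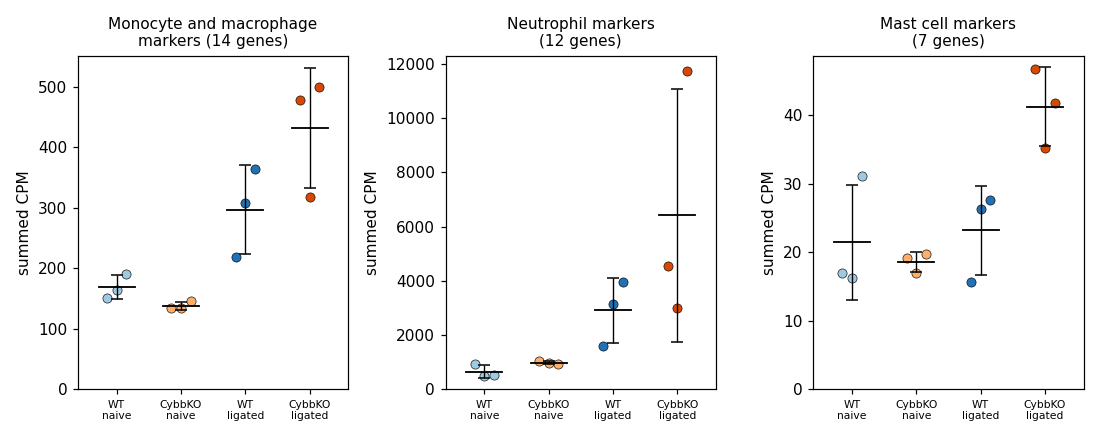
Summed CPM (y axis, linear) of monocyte and macrophage, neutrophil and mast cell markers in each library by group (x axis), with the mean and SD of 3 libraries. The neutrophil sum runs from 475 CPM in a WT naive library to 11750 CPM in a CybbKO ligated library, and the monocyte and macrophage sums of the ligated groups overlap.

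The receptors that borrow Fcer1g or Tyrobp had the highest share of genes called higher in CybbKO among the 6 pathway lists. Of 14 tested, 10 rose with the ligature in CybbKO and 1 in WT, with medians of 2.47 and 1.57. Over all tested genes 9.95% were called higher in CybbKO and 2.31% in WT. DESeq2 called 11 and 6, against 12.3% and 5.66% of genes. The WT calls of the 6 pathway lists, 11 in all, fell to 0 when WT ligated replicate 2, WT ligated replicate 3, WT naive replicate 1 or WT naive replicate 2 was left out, so that each WT call named below, and that of Clec4e, rests on each of these libraries. Clec4e, the Mincle receptor for microbial glycolipids, had 1.27 ± 0.151 CPM (SD, n = 3) in WT naive, 1.73 ± 0.725 in CybbKO naive, 7.26 ± 5.20 in WT ligated and 21.7 ± 9.73 in CybbKO ligated libraries. Its change was 3.65 (SE 0.57, adjusted p = 0.00285) in CybbKO and 2.51 (SE 0.56, adjusted p = 0.0374) in WT. Clec4d, a related C-type lectin, changed by 3.36 (SE 0.55, adjusted p = 0.00342) in CybbKO, and Clec4n, the Dectin-2 receptor for fungal mannans, by 3.14 (SE 0.55, adjusted p = 0.00460). In WT Clec4d had 2.035 (SE 0.53, adjusted p = 0.0615) and Clec4n 1.775 (SE 0.52, adjusted p = 0.0856), where DESeq2 gave adjusted p-values of 0.00209 and 0.0097. Trem1, which amplifies inflammatory signalling through Tyrobp, changed by 2.67 (SE 0.55, adjusted p = 0.00977) in CybbKO and had 1.72 (SE 0.55, adjusted p = 0.109) in WT. Between the ligated groups the list had a median of 1.04, with 0 called.

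The Src family kinases phosphorylate ITAMs. Of 8 tested, 3 rose in each genotype, against 9.95% of all tested genes called higher in CybbKO and 2.31% in WT. Lyn and Fgr were among the 3 in both, and the WT calls were lost without any 1 of the 4 WT libraries named above. Lyn changed by 1.66 (SE 0.24, adjusted p = 0.00234) in CybbKO and 1.16 (SE 0.24, adjusted p = 0.0276) in WT. Fgr, a kinase of myeloid cells, changed by 2.21 (SE 0.33, adjusted p = 0.00276) in CybbKO and 1.38 (SE 0.33, adjusted p = 0.0468) in WT. Blk, a kinase of B cells, rose in WT by 2.00 (SE 0.49, adjusted p = 0.0486) and had 0.66 (SE 0.46, adjusted p = 0.385) in CybbKO. The broadly made Src, Yes1 and Fyn had log2 changes between -0.08 and 0.34 and were not called.

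Of 24 genes that act downstream of Syk, 11 rose and 1 fell with the ligature in CybbKO, and 2 rose and 1 fell in WT, where the calls were lost without any 1 of the same 4 libraries. DESeq2 called 12 higher in CybbKO and 5 in WT, and 1 lower in each. Over all tested genes 9.95% were called higher and 3.04% lower in CybbKO, and 2.31% higher and 0.884% lower in WT. Lcp2, the scaffold SLP-76, rose by 2.12 (SE 0.35, adjusted p = 0.00346) in CybbKO and had 1.23 (SE 0.34, adjusted p = 0.0732) in WT. Pik3ap1, an adaptor for PI3-kinase, rose by 2.42 (SE 0.49, adjusted p = 0.00856) in CybbKO and had 0.80 (SE 0.46, adjusted p = 0.360) in WT. The GTPase Rac2, which is also a part of the active Nox2 complex, rose by 1.92 (SE 0.31, adjusted p = 0.00342) in CybbKO and 1.51 (SE 0.31, adjusted p = 0.0282) in WT, and Dock2, which activates Rac proteins, by 1.44 (SE 0.23, adjusted p = 0.00303) and 0.93 (SE 0.23, adjusted p = 0.0497). Blnk, an adaptor known from B cells, fell by 1.07 (SE 0.17, adjusted p = 0.00342) in CybbKO and by 0.86 (SE 0.17, adjusted p = 0.0266) in WT, and had 98.1 ± 17.9 CPM in CybbKO naive and 46.8 ± 8.10 CPM in CybbKO ligated libraries. The abundant Vav3, Prkcd and Plcg1 were not called, with changes between -0.17 and 0.34.

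Of 23 inhibitory receptors and phosphatases tested, 14 were called higher in CybbKO and 4 in WT, and 0 were called lower. Over all tested genes 9.95% and 2.31% were called higher, and 3.04% and 0.884% lower. With DESeq2, 14 and 8 of the list were called higher, against 12.3% and 5.66% of genes. Lilrb4a, an ITIM receptor of myeloid cells, had 2.44 ± 0.120 CPM in WT naive, 2.30 ± 0.913 in CybbKO naive, 8.81 ± 2.81 in WT ligated and 22.5 ± 9.92 in CybbKO ligated libraries. Its change was 3.29 (SE 0.41, adjusted p = 0.00189) in CybbKO and 1.85 (SE 0.39, adjusted p = 0.0314) in WT. Clec12a, an inhibitory lectin, changed by 2.63 (SE 0.34, adjusted p = 0.00199) and 1.36 (SE 0.32, adjusted p = 0.0467). Inpp5d, the SHIP1 phosphatase that Fcgr2b recruits, rose by 1.49 (adjusted p = 0.00207) in CybbKO and had 0.77 (adjusted p = 0.0593) in WT, a gene named after its values were seen. Ceacam1 rose by 1.17 (SE 0.31, adjusted p = 0.0287) in CybbKO and had 0.89 (SE 0.31, adjusted p = 0.130) in WT. The broadly made Ptpn11 and Cbl were not called, with changes between 0.01 and 0.28, and Sirpa had 0.51 (SE 0.17, adjusted p = 0.0752) in CybbKO.

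Of 11 other Fc receptors tested, 1 was called in CybbKO, a share near the 9.95% of all tested genes called higher there, and 0 were called in WT. It was Fcrls, a receptor-like gene of macrophages, with 1.96 (SE 0.45, adjusted p = 0.0162) in CybbKO and 0.82 (SE 0.43, adjusted p = 0.318) in WT. Fcgrt, which carries IgG across cells and recycles it, had 0.52 (SE 0.24, adjusted p = 0.187) in CybbKO and 0.04 (SE 0.24, adjusted p = 0.946) in WT. Pigr, which carries IgA across epithelium, ranged widely, with 135 ± 200.3 CPM in WT naive and 28.5 ± 7.25 CPM in CybbKO naive libraries, and Trim21, a receptor for IgG in the cytosol, had -0.02 (SE 0.21, adjusted p = 0.971) in CybbKO. Constant region genes of the IgG heavy chains, which the receptors bind, and of the light chains were not in the count table (0 of 7). None of the genes of these 6 lists was called between genotypes in either tissue or in the interaction.

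**Figure D5:**
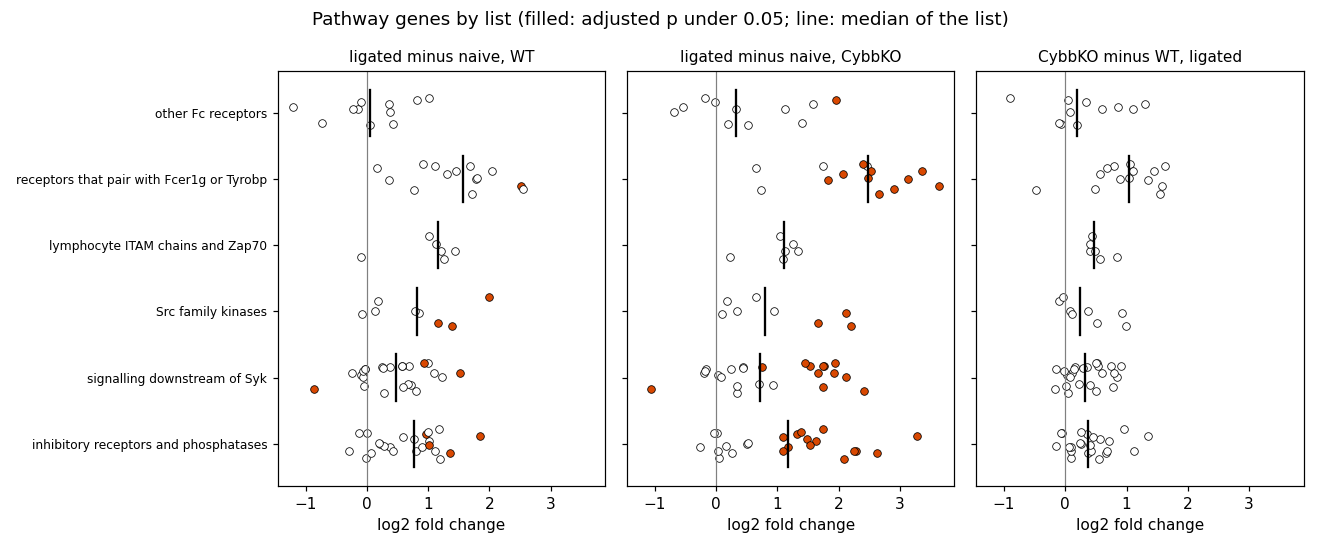
Log2 fold change (x axis) of each tested gene of the 6 pathway lists (y axis) with the ligature in WT and in CybbKO and between the ligated groups, with filled points for genes called by edgeR and a line for the median of a list. The filled points are 11 in the WT ligature panel and 40 in the CybbKO ligature panel, and the genotype panel has 0.

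The genes whose profiles over the 12 libraries were most like each member, of which not all are named, were found by the mean absolute log2 difference after each gene was centred on its own mean. For Tyrobp these were Nfam1 (0.11), Ncf1 (0.14) and Itgb2 (0.14), for Fcer1g Ctss (0.17) and Tnfrsf1b (0.17), and for Fcgr2b C1s1 (0.11), Lyn (0.15) and Dock2 (0.15). Ncf1 encodes a cytosolic part of the Nox2 complex and Itgb2 the common chain of leukocyte integrins. For Fcgr3 they were Epsti1 (0.16), Cp (0.17) and Lyz2 (0.19), and for Fcgr1 Cd300c2 (0.18), Nnmt (0.19) and Ltbp2 (0.20). Those of Syk, namely Srd5a3, Taok3 and Ccz1, lay within 0.06 of it, as genes that hardly varied.

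Fcgr4 had the least close matches, Oas2 (0.34), Ifi47 (0.41) and Klra17 (0.42), the first 2 of which are interferon-induced genes. Oas2 had 9.50 CPM in WT naive replicate 1, where Fcgr4 was high, and 2.02 and 1.39 CPM in the other WT naive libraries. Ifi47 had 10.9, 2.44 and 2.30 CPM in the same libraries. In CybbKO naive replicate 3 the genes parted, with 7.56 CPM of Oas2 and 11.5 CPM of Ifi47 against 1.31 CPM of Fcgr4.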

How the data were processed

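Gingival RNA from 12 libraries in 4 groups of 3 was analysed, with groups taken from the labels. Raw counts of reads per gene were deposited by the authors without normalization. According to the study's methods, stranded mRNA libraries were aligned with STAR to GRCm38 and counted by strand with featureCounts, while the submitters' processing notes name HTSeq 0.10.0, so that the counter is not settled. GENCODE mouse release M21 gave symbols and positions of 21939 genes and none for 26.

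All 12 libraries were fitted together, each group with its own mean, by edgeR's quasi-likelihood method (edgeR 4.0.16, R 4.3.3), with TMM scaling, filterByExpr (15046 genes kept) and Benjamini-Hochberg adjustment over all tested genes. The biological coefficient of variation was 0.24. DESeq2 1.42.0, other scalings and filters, fits restricted to the 6 libraries of a contrast, a block for the replicate number, and fits without each library in turn were alternatives. Ratios of counts were compared by exact two-sided permutation tests. Tested on simulated data over 14950 genes, edgeR found 57.8% of 2-fold and 94.2% of 4-fold changes between the ligated groups. The simulation changed many genes at once, all with ample counts, which makes the adjusted threshold easier to pass. Between the real ligated groups edgeR called 1 gene, so these shares do not give the chance of calling a member there. Beyond the members, the text names the 4 most abundant genes of each pathway list and the 2 called genes with the largest change in each ligature comparison, and for each member the 3 genes of most similar profile. Some of these genes are not reported here. The members and the gene lists were chosen with earlier results of these data known. Each library was treated as 1 mouse. P-values cover the spread between these libraries.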

Additional observations from a re-analysis of the deposited data

How the results depend on the processing

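In WT, the count of members called with the ligature was 0, and it was 4 with DESeq2, 1 with scaling by library size only, 1 when only genes with 10 or more counts in each library were kept, and 0 to 2 when a library was left out. It was 1 without WT ligated replicate 1 or CybbKO naive replicate 2, and 2 without CybbKO ligated replicate 2. Over all tested genes, 481 were called in WT, 1375 with DESeq2, 271 with the replicate block, and 27 (without WT naive replicate 2) to 900 (without CybbKO ligated replicate 2) with a library left out. The pathway genes called in WT were 11, and 23 with DESeq2, 6 with the block and 0 to 18 with a library left out. In CybbKO the members called stayed at 5 to 6 and the pathway genes at 31 to 45 with a library left out, while all genes called ran from 837 to 2949 against 1954. For the genotype in ligated tissue 1 gene was called, and 14 with DESeq2, 0 with only the 6 libraries compared and 0 to 2 with a library left out, none of them a member. In naive tissue 1 gene was called, and 2 with DESeq2, and in the interaction 0, and 0 to 1 with a library left out.

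Some signs turned, for values with no call. For the WT ligature change Fcgr4 had 0.028 with the replicate block and -0.60 to 1.39 with a library left out, and Syk had -0.0058 with DESeq2, -0.0059 with DESeq2's size factors and -0.067 to 0.058 with a library left out. In naive tissue the genotype difference ran from -1.33 to 0.60 for Fcgr4 and from -0.15 to 0.35 for Tyrobp. With a library left out, the ratio differences that crossed 0 were Fcgr3 to Fcgr2b with the WT ligature (-0.31 to 0.033) and between naive groups (-0.20 to 0.15), Fcgr4 to Fcgr2b in the same comparisons (-0.89 to 0.43 and -0.61 to 0.71), and Fcer1g to Tyrobp with the WT ligature (-0.24 to 0.20) and between ligated groups (-0.093 to 0.24). The cause was not tested.

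Samples of the same replicate number did not deviate together (correlations from -0.228 to 0.115), so that the numbers do not pair the mice. With the replicate block Fcgr4 lost its call in CybbKO (log2 change 2.35, adjusted p = 0.0774), and the other 5 called members kept theirs. With 3 libraries per group, a change of 2-fold was often missed in simulated data. Counts were lowest for Fcgr1 and Fcgr4, with as few as 15 and 16 in a library.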

Other observations

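Lymphocytes carry ITAM chains of their own, which were not called by edgeR. Of 6 lymphocyte ITAM genes tested, 0 were called in any comparison by edgeR, against 9.95% of all tested genes called higher with the ligature in CybbKO and 2.31% in WT, and DESeq2 called 1 with the ligature in CybbKO. The median log2 change of the list with the ligature was 1.17 in WT and 1.11 in CybbKO. Cd3g, a chain of the T cell receptor complex, had 1.90 ± 1.48 CPM (SD, n = 3) in WT naive, 2.86 ± 0.579 in CybbKO naive, 4.42 ± 1.55 in WT ligated and 6.20 ± 0.875 in CybbKO ligated libraries, with a ligature change of 1.12 (SE 0.48, adjusted p = 0.153 from edgeR) in CybbKO. The 8 T and NK cell markers with counts summed to between 2.41 and 8.08 CPM in naive and between 5.02 and 11.8 CPM in ligated libraries. The 8 B and plasma cell markers summed to between 1.76 and 4.97 CPM over all libraries, and 2 of the 5 tested were called lower with the ligature in CybbKO, against 3.04% of all tested genes. Osteoclasts, myeloid cells in which Tyrobp has a known part, had 6 markers that summed to between 48.5 and 73.4 CPM in naive libraries and between 109 and 373 CPM in ligated libraries. Of the 5 tested, 3 were called higher with the ligature in CybbKO and 1 in WT, against 9.95% and 2.31% of all tested genes. DESeq2 called all 5 in both, against 12.3% of genes in CybbKO and 5.66% in WT.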
